A study of Mus musculus with 6 samples.

Results

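The calcium cycling genes of cardiomyocytes described here are 10 genes listed by name, chosen with earlier results of these data known: Cacna1c, Ryr2, Trdn, Casq2, Jph2, Hrc, Atp2a2, Pln, Slc8a1 and Camk2d. Every probe set annotated to exactly 1 of these gene symbols was taken, which gave 34 probe sets of 45037 on the array, and 10 of 18193 genes with a symbol. Gene expression in heart tissue had been measured with Affymetrix arrays, 1 array per heart, in mice 9 months old. The GRK2+/- group held 3 hearts of mice heterozygous for a targeted allele of the gene of G protein-coupled receptor kinase 2 (B6.129-Adrbk1tm1Mca/J, crossed back to C57BL/6J for over 20 generations), and the wild-type group held 3 hearts of C57BL/6J littermates. The allele is a germline one, so it is not limited to cardiomyocytes. All animals were anaesthetised with isoflurane, the hearts were arrested with potassium chloride and rinsed, and RNA came from the upper part of the heart with all its cell types. The labels do not give the sex of the animals.

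In a cardiomyocyte, the action potential opens the L-type channel, whose pore is the Cacna1c product, and the calcium that enters triggers a larger release from the sarcoplasmic reticulum through the ryanodine receptor Ryr2. Calcium then returns to the reticulum through the pump SERCA2 (Atp2a2), which phospholamban (Pln) restrains until it is phosphorylated, and leaves the cell through the sodium-calcium exchanger (Slc8a1). Beta-adrenergic receptors, which GRK2 desensitises, act on this cycle through protein kinase A and, in part, through the calmodulin kinase Camk2d.

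Promoter sequence of 4 of these genes is shown because 3 of them (Slc8a1, Ryr2 and Cacna1c) are those whose brightest probe set was higher in GRK2+/- hearts at an unadjusted p under 0.05, and the fourth (Pln), whose values overlapped, was picked as a contrast after its values were seen. Each is the 250 bases before the annotated start in RefSeq (GRCm38.p6), written 5′ to 3′ on the gene's strand, at chr17:81738388-81738637, minus strand for Slc8a1, chr13:12106946-12107195, minus strand for Ryr2, chr6:119196410-119196659, minus strand for the outermost of 3 starts of Cacna1c, and chr10:53337436-53337685, plus strand for Pln. Both strands were searched for 3 motifs, and capitals mark the matches. The motif of GATA factors was spelled AGATAA, the half-site of the cyclic AMP response element TGACG, and a MEF2 motif was searched as well.
Slc8a1: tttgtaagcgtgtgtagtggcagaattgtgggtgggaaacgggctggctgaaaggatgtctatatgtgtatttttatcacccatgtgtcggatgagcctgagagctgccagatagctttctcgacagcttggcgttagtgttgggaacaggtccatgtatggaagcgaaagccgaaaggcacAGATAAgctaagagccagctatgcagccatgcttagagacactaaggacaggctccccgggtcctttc
Ryr2: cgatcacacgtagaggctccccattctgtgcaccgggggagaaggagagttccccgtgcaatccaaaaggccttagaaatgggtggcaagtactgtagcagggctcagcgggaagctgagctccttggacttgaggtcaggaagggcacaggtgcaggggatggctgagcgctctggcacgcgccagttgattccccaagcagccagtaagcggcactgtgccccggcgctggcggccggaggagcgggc
Cacna1c: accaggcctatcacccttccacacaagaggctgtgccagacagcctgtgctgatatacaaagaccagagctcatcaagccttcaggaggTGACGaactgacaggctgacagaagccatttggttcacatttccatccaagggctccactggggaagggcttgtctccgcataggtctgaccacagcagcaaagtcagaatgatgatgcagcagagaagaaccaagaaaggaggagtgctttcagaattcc
Pln: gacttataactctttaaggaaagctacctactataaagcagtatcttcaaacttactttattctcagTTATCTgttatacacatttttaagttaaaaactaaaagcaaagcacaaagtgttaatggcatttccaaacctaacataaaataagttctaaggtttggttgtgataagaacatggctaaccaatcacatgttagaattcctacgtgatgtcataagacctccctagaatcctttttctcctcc
The GATA letters were found once before the start of Slc8a1 and once, on the opposite strand, before that of Pln. The TGACG half-site was found once, before this start of Cacna1c. None of the 3 motifs was found in the window of Ryr2, in those of Casq2, Jph2, Camk2d and Hrc, or before the other starts of Cacna1c. No matches overlapped. Among all 32851 promoters of the table, 9.99% held AGATAA, 17.8% held TGACG and 3.2% held the MEF2 motif in the same window, and 8 of the 10 genes, with 11 promoters in all, were in the table. Atp2a2 and Trdn were not matched.

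Levels are the deposited log2 values (RMA, a method that corrects background, normalises arrays and summarises the probes of a set), and a difference is GRK2+/- minus wild type on that scale. Levels of different probe sets depend on their probes, so they say only roughly where a set lies on the scale and do not rank genes. The 6 array medians lay between 6.25 and 6.31. Differences were tested with limma over all 45037 probe sets, and 0 of them had a Benjamini-Hochberg adjusted p under 0.05 (0%, smallest adjusted p = 0.103). An unadjusted p under 0.05 was found for 12.8% of all probe sets, and for 5.44% with a higher and 7.40% with a lower value in GRK2+/- hearts. Because the annotation names Grk2 for no probe set, the targeted gene could not be used to check the genotypes. The tissue was checked by its markers: the cardiomyocyte genes Actc1, Mb and Myh6 reached 15.01, 15.03 and 14.85 on average over the 6 hearts, against a highest value of 15.1 in the table. Of the 6 atrial markers, the brightest sets of Myl7, Sln and Bmp10 lay at 5.56, 5.68 and 6.13, below the median probe set (6.28), and those of Myl4, Stard10 and Nppa at 7.17, 9.42 and 10.57, above it.

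Over the 34 probe sets of the calcium cycling genes, 24 differences were above 0 and 10 below, with a median of 0.067, against 42.6% above 0 and a median of -0.021 over all probe sets. Both medians depend on scaling: with arrays centred on their medians they were 0.10 and 0.0079. Leaving out GRK2+/- heart 1 or wild-type heart 3 lowered the median of the 34 to 0.038 or 0.043, and leaving out GRK2+/- heart 2 or wild-type heart 1 raised it to 0.10 or 0.12. None of the 34 passed an adjusted p of 0.05 (smallest adjusted p = 0.143). At an unadjusted limma p under 0.05, 6 probe sets (17.6%) of 4 genes were higher in GRK2+/- hearts, beside 5.44% of all probe sets, and 0 were lower, beside 7.40%. These 6 were both probe sets of Ryr2, both of Cacna1c, 1 of 4 of Slc8a1 and 1 of 6 of Atp2a2. Because the 10 genes were chosen with earlier results of these data known, the shares describe the list and do not test it. The share of higher probe sets in the whole table moved with level and with the span of the gene. It was 8.22% at or above the median level, 10% for genes spanning 200 kb or more (RefSeq, GRCm38.p6), and 18.1% for probe sets that met both conditions. Ryr2, Cacna1c, Slc8a1, Trdn and Camk2d span over 200 kb and hold 21 of the 34 probe sets. Of these 21, 5 (23.8%) were higher at an unadjusted p under 0.05, beside the 10% for genes of that span. The 18.1% is not a like share for them, because some of the 21 lie below the median level. In whole tissue, fewer cells of a type and less RNA per cell cannot be told apart. Without wild-type heart 1, the count of higher probe sets was 10 in place of 6. With each array's trend on gene span taken out, a setting chosen after seeing the data, it remained at 6. That setting removes only the average trend on span, and the median difference of genes spanning 200 kb or more was already -0.0085. The unchanged count therefore cannot show what part span has in it.

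**Figure D1:**
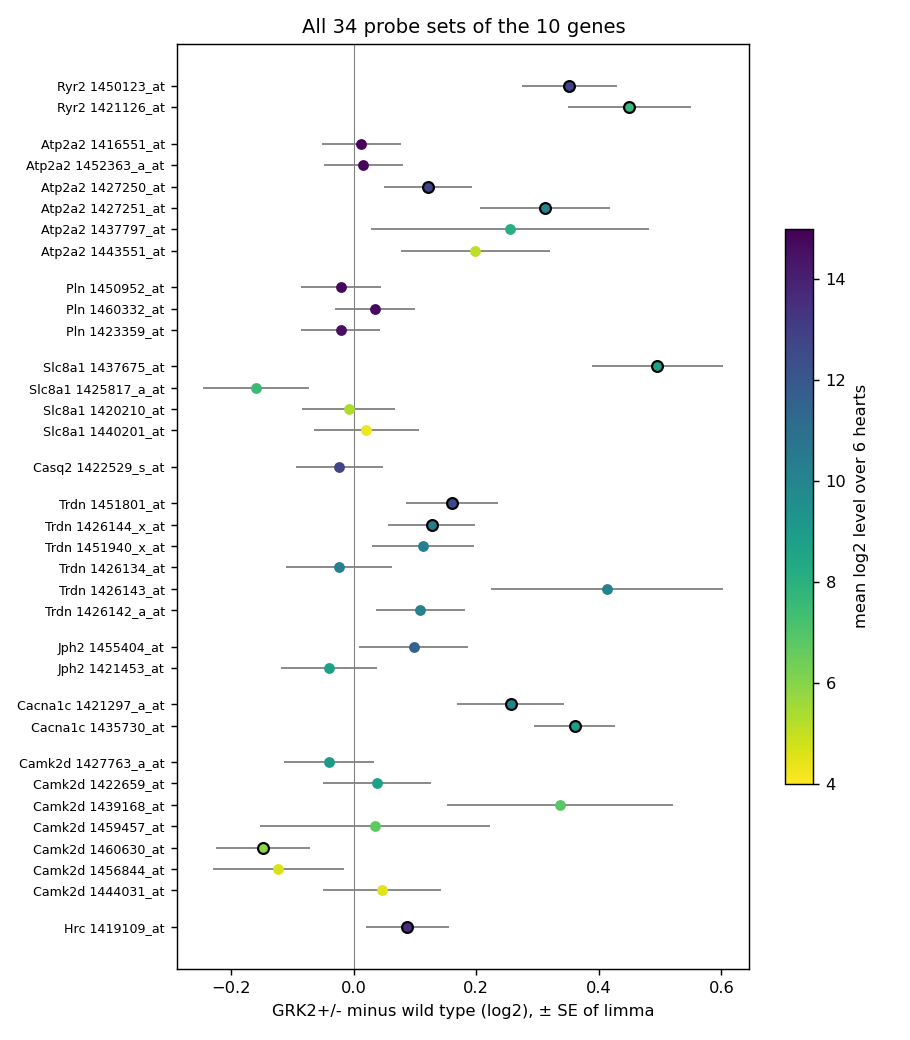
Difference in log2 level (x axis, GRK2+/- minus wild type, bars ± SE of limma, n = 3 hearts per group) for each of the 34 probe sets, grouped by gene and ordered from the brightest to the dimmest within a gene. Colour gives the mean level, and a black ring marks probe sets whose 2 groups did not overlap (10 higher, 1 lower). The 2 probe sets of Ryr2 and of Cacna1c lie to the right of 0, while those of Slc8a1 and Camk2d lie on both sides.

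In 10 of the 34 probe sets the 3 GRK2+/- values were all above the 3 wild-type values, beside 6.76% of all probe sets, and in 1 they were all below, beside 11.2%. Taking the brightest probe set of each gene, GRK2+/- hearts 1, 2 and 3 exceeded every wild-type heart in 6, 5 and 5 of the 10 genes. Wild-type heart 3 had the lowest of the 6 values in 5 of the 10. Averaged over the 10 genes and relative to the wild-type mean, hearts 1, 2 and 3 of the GRK2+/- group stood at 0.17, 0.14 and 0.11, and those of the wild-type group between -0.039 and 0.039. In these brightest sets, Ryr2, Slc8a1, Cacna1c, Trdn and Hrc showed no overlap between groups, and Atp2a2, Pln, Casq2, Jph2 and Camk2d overlapped.

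**Figure D2:**
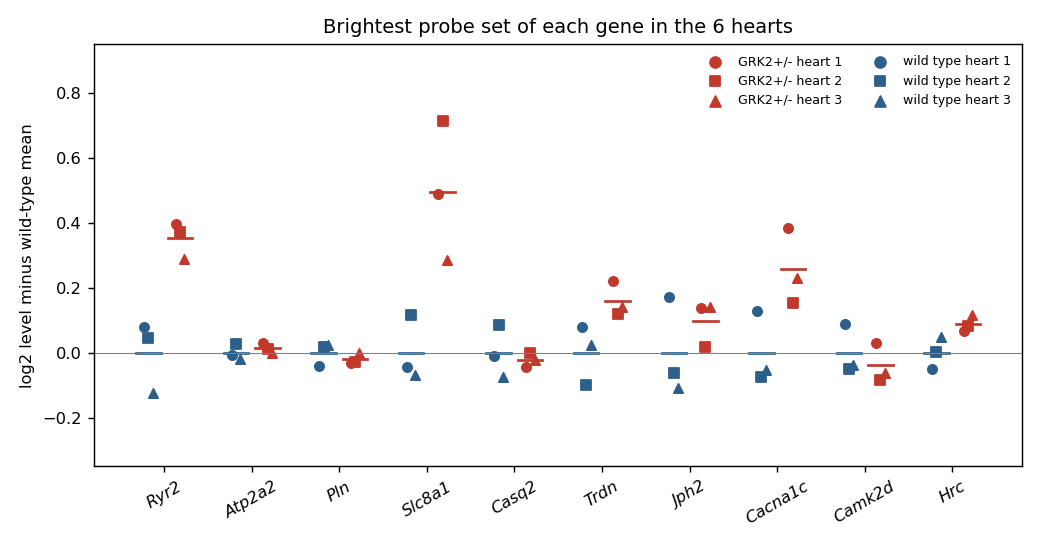
Level of the brightest probe set of each of the 10 genes in every heart, as the log2 level minus the wild-type mean (y axis); lines mark group means of 3 hearts. All GRK2+/- hearts lie above all wild-type hearts for Ryr2, Slc8a1, Trdn, Cacna1c and Hrc.

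Cacna1c, the pore of the L-type channel and the entry step of the cycle, had higher values in GRK2+/- hearts by both of its probe sets, neither past the adjusted threshold. The brighter, 1421297_a_at, read 10.32, 10.09 and 10.17 in GRK2+/- hearts 1 to 3 and 10.07, 9.86 and 9.88 in wild-type hearts 1 to 3. Its groups did not overlap, and the lowest GRK2+/- value was that of heart 2. The difference was 0.26 ± 0.087 (SE, n = 3 per group; limma adjusted p = 0.281), or 1.19-fold. It was 0.19 when GRK2+/- heart 1 was left out and 0.22 when wild-type heart 2 was, and the unadjusted p then exceeded 0.05. The dimmer, 1435730_at, read 9.11, 9.07 and 9.12 in GRK2+/- hearts 1 to 3 and 8.73, 8.77 and 8.72 in wild-type hearts 1 to 3. Its 2 groups were tight and lay apart, with a difference of 0.36 ± 0.066 (SE, n = 3 per group; limma adjusted p = 0.143), the smallest p among the 34 probe sets. The within-heart difference between both probe sets shifted by -0.10 ± 0.10 between groups (brighter minus dimmer, limma adjusted p = 0.652), a shift of the size of its error. Cacna1c is also the L-type channel of vascular smooth muscle. In the same hearts, 4 of 13 probe sets of smooth muscle and pericyte markers were higher at an unadjusted p under 0.05, beside 5.44% of all probe sets. So were 3 of 7 of endothelial, 3 of 13 of fibroblast and 2 of 9 of leukocyte markers. Cardiomyocyte markers had 3 of 18 higher and 1 lower, and atrial markers 0 of 8 higher and 3 lower. The part of these cell types in this result was not tested.

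Ryr2, the calcium release channel of the sarcoplasmic reticulum, likewise had higher values by both probe sets, neither past the adjusted threshold. The level of 1450123_at was 13.05, 13.03 and 12.94 in GRK2+/- hearts 1 to 3 and 12.73, 12.70 and 12.53 in wild-type hearts 1 to 3. All 3 GRK2+/- hearts lay above all wild-type hearts, and wild-type heart 3 was lowest. The difference was 0.35 ± 0.078 (SE, n = 3 per group; limma adjusted p = 0.177), with a 95% interval of 0.18 to 0.53, or 1.28-fold. Among the dimmer values of 1421126_at, those of the GRK2+/- hearts were 7.95, 7.90 and 7.59 and those of the wild-type hearts 7.27, 7.42 and 7.40. Again the groups did not overlap, and GRK2+/- heart 3 lay nearest to the wild-type range. That probe set differed by 0.45 ± 0.10 (SE, n = 3 per group; limma adjusted p = 0.177). Leaving out each heart in turn kept the difference of the brighter set between 0.29 and 0.39, and that of the dimmer between 0.38 and 0.56.

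Of the genes for proteins that hold calcium at the release site, none had a probe set at an unadjusted p under 0.05. Trdn encodes triadin, which ties calsequestrin to the ryanodine receptor and is spliced into several isoforms. Its 6 probe sets differed by -0.024 to 0.41, 5 above 0 and 1 below. The brightest, 1451801_at, read 12.73, 12.63 and 12.65 in GRK2+/- hearts 1 to 3 and 12.58, 12.41 and 12.53 in wild-type hearts 1 to 3. Those groups did not overlap, yet the gap between heart 2 of the GRK2+/- group and heart 1 of the wild-type group was small, and the difference was 0.16 ± 0.075 (SE, n = 3 per group; limma adjusted p = 0.405). For 1426144_x_at, whose suffix marks probes that may also match other transcripts, the levels were 10.60, 10.46 and 10.47 in GRK2+/- hearts 1 to 3 and 10.38, 10.34 and 10.43 in wild-type hearts 1 to 3. Those groups did not overlap either, with a difference of 0.13 ± 0.071 (SE, n = 3 per group; limma adjusted p = 0.482). The largest difference of a triadin probe set, 0.41 for 1426143_at, came with the largest error (0.19, limma adjusted p = 0.398) and overlapping groups, with wild-type heart 1 at 10.26 above GRK2+/- hearts 2 and 3 at 10.26 and 10.15. Leaving out GRK2+/- heart 1 gave 0.23, and leaving out wild-type heart 2 gave 0.20. Leaving out any other heart raised it, to between 0.48 and 0.56. Its unadjusted limma p was 0.054 in the main fit and 0.045 after centring. It was 0.038 with a variance prior that follows level and 0.0084 with the replicate number as a block.

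Casq2, cardiac calsequestrin and the main calcium buffer inside the reticulum, was measured by 1 probe set, 1422529_s_at, which read 12.75, 12.79 and 12.77 in GRK2+/- hearts 1 to 3 and 12.78, 12.88 and 12.72 in wild-type hearts 1 to 3. The wild-type hearts bracketed the GRK2+/- hearts. The difference was -0.023 ± 0.071 (SE, n = 3 per group; limma adjusted p = 0.919), with a 95% interval of -0.18 to 0.13. Hrc, the histidine-rich calcium-binding protein of the reticulum, read 13.57, 13.58 and 13.62 in GRK2+/- hearts 1 to 3 and 13.45, 13.50 and 13.55 in wild-type hearts 1 to 3 by its single probe set 1419109_at. Its groups did not overlap but lay close together, and the difference was 0.088 ± 0.067 (SE, n = 3 per group; limma adjusted p = 0.611). That SE leans on a variance prior that does not follow level, while the SD between hearts was 0.026 in GRK2+/- and 0.049 in wild type. The unadjusted limma p was 0.22 in the main fit and 0.051 with a prior that follows level.

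Jph2 encodes junctophilin 2, which holds the reticulum against the T-tubule. Its brighter probe set, 1455404_at, read 11.69, 11.56 and 11.69 in GRK2+/- hearts 1 to 3 and 11.72, 11.48 and 11.44 in wild-type hearts 1 to 3. Wild-type heart 1 was the highest of all 6, so the groups overlapped, and the difference was 0.10 ± 0.088 (SE, n = 3 per group; limma adjusted p = 0.673). The dimmer set 1421453_at differed by -0.040 ± 0.079 in the other direction. Neither difference was larger than the spread between hearts, and the first was 0.18 without wild-type heart 1 and 0.043 without wild-type heart 3.

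Atp2a2, the SERCA2 pump that refills the reticulum, had 6 probe sets with differences from 0.013 to 0.31, none past the adjusted threshold and 1 at an unadjusted p under 0.05. The brightest, 1416551_at, read 14.88, 14.86 and 14.85 in GRK2+/- hearts 1 to 3 and 14.84, 14.88 and 14.83 in wild-type hearts 1 to 3. Those values overlapped and lay within 0.25 of the highest value of the table on average, and the difference was 0.013 ± 0.065 (SE, n = 3 per group; limma adjusted p = 0.952), with a 95% interval of -0.13 to 0.16. Another probe set at the same height, 1452363_a_at, differed by 0.016 ± 0.065. The next, 1427250_at, read 12.91, 12.87 and 12.80 in GRK2+/- hearts 1 to 3 and 12.79, 12.77 and 12.66 in wild-type hearts 1 to 3. Its groups did not overlap, although GRK2+/- heart 3 and wild-type heart 1 nearly touched, and the difference was 0.12 ± 0.072 (SE, n = 3 per group; limma adjusted p = 0.505). The fourth, 1427251_at, read 10.24, 9.88 and 10.30 in GRK2+/- hearts 1 to 3 and 9.87, 9.78 and 9.83 in wild-type hearts 1 to 3. Here too the groups did not overlap, although GRK2+/- heart 2 lay next to the wild-type range, and the difference was 0.31 ± 0.11 (SE, n = 3 per group; limma adjusted p = 0.281). Leaving out GRK2+/- heart 1 or GRK2+/- heart 3 gave 0.26 or 0.23, with an unadjusted p above 0.05. Both remaining sets, 1437797_at and 1443551_at, overlapped, with differences of 0.26 ± 0.23 and 0.20 ± 0.12. Single hearts moved both. The value of 1437797_at became 0.036 or 0.55 when GRK2+/- heart 3 or 2 was left out and 0.13 or 0.40 when wild-type heart 3 or 1 was, and that of 1443551_at became 0.039 when GRK2+/- heart 1 was.

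Pln, which encodes phospholamban, was near the top of the scale in every heart. The brightest of its 3 probe sets, 1450952_at, read 14.74, 14.74 and 14.77 in GRK2+/- hearts 1 to 3 and 14.73, 14.79 and 14.80 in wild-type hearts 1 to 3. The groups overlapped, and the differences of the 3 sets were -0.021 ± 0.065, 0.035 ± 0.065 and -0.021 ± 0.065. With arrays centred on their medians the first and last were positive (0.0079 and 0.0080). Values this high varied little in the whole table: over the 87 probe sets with a mean above 14, to which all 3 of Pln and 2 of Atp2a2 belong, the standard deviation of the differences was 0.041 and 0% were higher at an unadjusted p under 0.05, against a standard deviation of 0.17 and 10.6% for levels from 9 to 11. The main fit used a variance prior that does not follow level. Under it the Pln sets had an SE of 0.065, more than the 0.041 by which differences above 14 spread. Few differences there could reach that p, so the 0% says little about these sets. The part of signal compression near the ceiling was not tested.

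**Figure D3:**
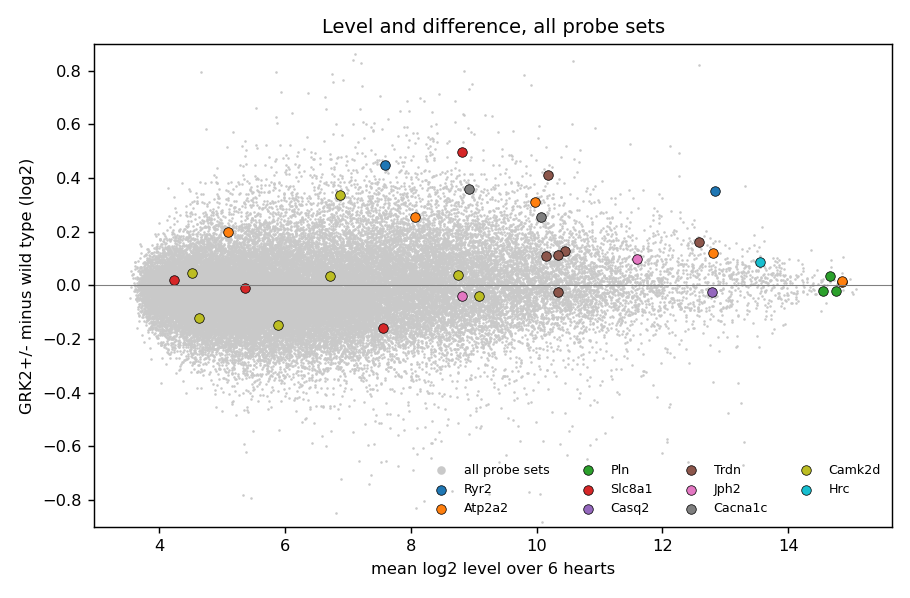
Mean log2 level over the 6 hearts (x axis) against the difference GRK2+/- minus wild type (y axis, log2) for 45037 probe sets in grey, of which 33 lie outside the ±0.9 shown, and the 34 of the calcium cycling genes in colour. The cloud narrows toward the right end, where the sets of Pln and the brightest of Atp2a2 lie near 0, and the brighter Ryr2 set lies at 0.35.

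The balance of pump and inhibitor was followed as the within-heart log2 difference between the brightest sets of Atp2a2 and Pln, of which only the shift between groups has a meaning. It was 0.14, 0.12 and 0.077 in GRK2+/- hearts and 0.11, 0.088 and 0.034 in wild-type hearts. The groups overlapped. The shift of 0.034 gave a two-sided p of 0.4 in an exact permutation test (n = 3 per group), whose smallest possible p is 0.1. With the mean of all probe sets of each gene, the shift was 0.16 (exact permutation p = 0.2). Both brightest sets lie above 14, where differences were small throughout the table. The reason for this was not tested, so this shift says little about the balance.

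Slc8a1, the sodium-calcium exchanger that removes calcium across the surface membrane, held the largest difference among the 34 probe sets, though it did not pass the adjusted threshold. Its brightest set, 1437675_at, read 9.05, 9.27 and 8.85 in GRK2+/- hearts 1 to 3 and 8.52, 8.67 and 8.49 in wild-type hearts 1 to 3. All GRK2+/- values lay above all wild-type values, and the 3 GRK2+/- hearts spread more than the wild-type hearts, with heart 2 highest. The difference was 0.50 ± 0.11 (SE, n = 3 per group; limma adjusted p = 0.177), or 1.41-fold, with a 95% interval of 0.26 to 0.74. Of the other 3 sets, 1425817_a_at differed by -0.16 ± 0.086, 1420210_at by -0.0081 ± 0.076 and 1440201_at by 0.021 ± 0.086, each with overlapping groups. The mean of the 4 sets differed by 0.087. Of these, 1420210_at (5.36) and 1440201_at (4.23) lay below the median probe set (6.28), while 1425817_a_at (7.56) lay above it.

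Whether probe sets of 1 gene disagree was tested directly, with limma on the within-heart difference between the brightest set of a gene and each of its others, over 16752 pairs in 9010 genes. No pair passed an adjusted p of 0.05 (0%, smallest adjusted p = 0.192), and 14.3% had an unadjusted p under 0.05. Of the 24 pairs in 8 of the calcium cycling genes, 4 had an unadjusted p under 0.05 (16.7%), 3 of them in Slc8a1, and 5 had groups that did not overlap, beside 19.7% of all pairs. The brightest Slc8a1 set stood above 1425817_a_at by 1.49, 1.90 and 1.34 in GRK2+/- hearts and by 0.97, 1.09 and 0.71 in wild-type hearts. Those ranges did not overlap, and the shift was 0.65 ± 0.15 (SE, n = 3 per group; limma adjusted p = 0.221). Against 1420210_at and 1440201_at it was 0.50 ± 0.12 and 0.47 ± 0.12. Both of these sets lie below the median probe set and differed by only -0.0081 and 0.021 between groups. The 2 shifts therefore nearly repeat the difference of 0.50 of the brightest set. The 3 pairs share the brightest set and are not independent. The fourth pair was Atp2a2, where 1427251_at shifted against 1416551_at by -0.30 ± 0.12 (brightest minus other; limma adjusted p = 0.318). Among the 8 genes with several probe sets, all sets of Ryr2, Cacna1c and Atp2a2 pointed up, and those of Pln, Slc8a1, Trdn, Jph2 and Camk2d pointed both ways. The platform annotation used here does not say where along the transcript a probe set lies.

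**Figure D4:**
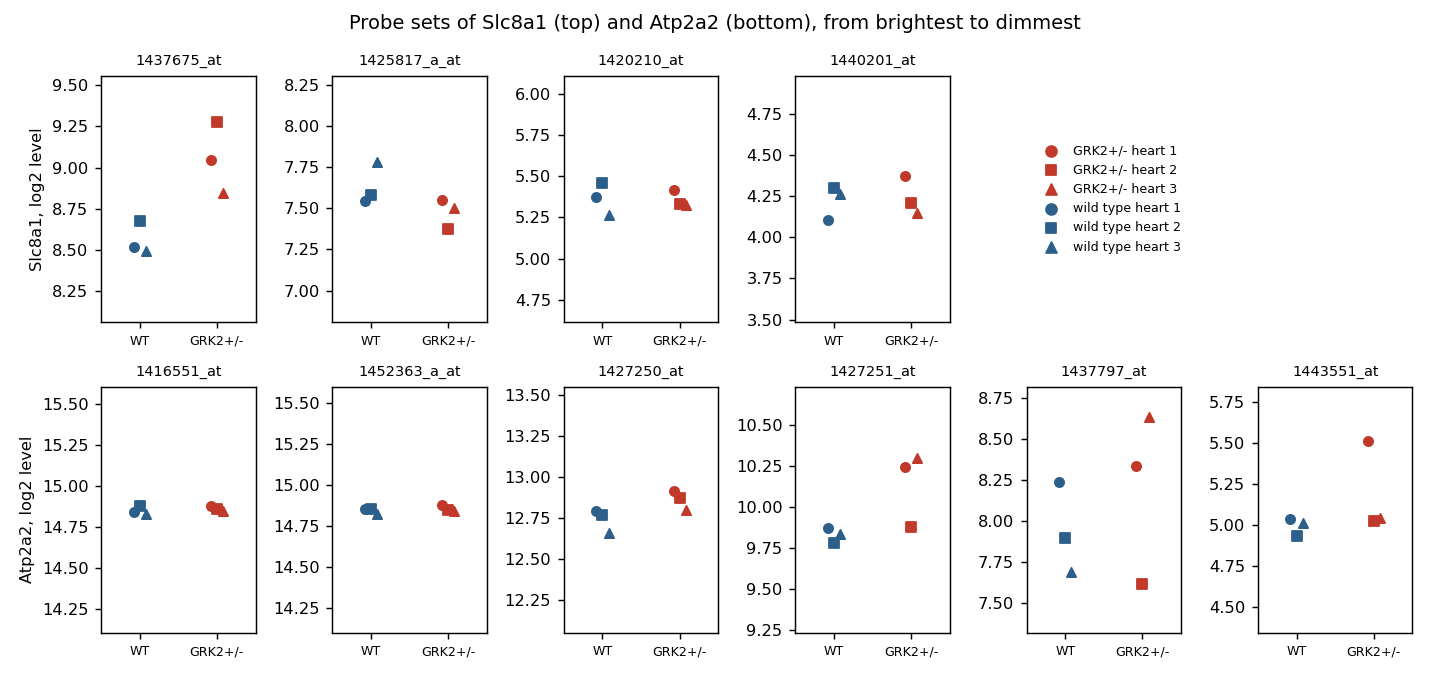
Log2 level (y axis, each panel spanning the same range of 1.5 around its mean) in the 3 wild-type and 3 GRK2+/- hearts for the 4 probe sets of Slc8a1 and the 6 of Atp2a2, brightest at left. For Slc8a1 the groups separate in the brightest set and overlap in the other 3; for Atp2a2 the 2 brightest are flat and 1427250_at and 1427251_at separate.

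Camk2d, the calmodulin-dependent kinase that phosphorylates Ryr2 and phospholamban, had 7 probe sets with differences from -0.15 to 0.34, 4 above 0 and 3 below. None had an unadjusted p under 0.05. The brightest, 1427763_a_at, read 9.14, 9.02 and 9.05 in GRK2+/- hearts 1 to 3 and 9.20, 9.06 and 9.07 in wild-type hearts 1 to 3. Wild-type heart 1 was the highest and the groups overlapped, with a difference of -0.039 ± 0.073 (SE, n = 3 per group; limma adjusted p = 0.854) and a 95% interval of -0.20 to 0.12. In 1460630_at, which lies below the median probe set, the values were 5.87, 5.80 and 5.79 in GRK2+/- hearts 1 to 3 and 5.93, 5.88 and 6.09 in wild-type hearts 1 to 3. There the GRK2+/- values lay below the wild-type values by a narrow margin, and the difference was -0.15 ± 0.077 (SE, n = 3 per group; limma adjusted p = 0.449). The largest, 0.34 ± 0.18 for 1439168_at, overlapped. With GRK2+/- heart 2 left out it was 0.54, with GRK2+/- heart 1 left out 0.21, and with wild-type heart 3 left out 0.16.

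A wider list of 84 calcium genes in 7 roles, of which 72 were measured by 179 probe sets, stood closer to the whole table. This list, too, was chosen with earlier results of these data known. Of its probe sets, 18 (10.1%) were higher and 13 (7.26%) lower at an unadjusted limma p under 0.05, beside 5.44% and 7.40% of all probe sets, 148 did not pass, and 0 passed the adjusted threshold (smallest adjusted p = 0.132). Its median difference was -0.0043. Leaving out GRK2+/- heart 2 gave 11 higher and 6 lower sets, wild-type heart 2 gave 10 higher, GRK2+/- heart 3 gave 6 lower and wild-type heart 3 gave 7 lower. Among the subunits and regulators of the channels, 5 of 25 sets were higher and 3 lower. The counts by role are small, and the same shares of all probe sets stand as their background. Rrad, a small GTPase that inhibits the L-type channel, read 10.84, 10.73 and 11.04 in the GRK2+/- group and 10.13, 10.30 and 10.38 in the wild-type group, a difference of 0.60 ± 0.10 (SE, n = 3 per group; limma adjusted p = 0.132) without overlap. Gem, a GTPase of the same family, differed by 0.26 ± 0.10 at levels below the median probe set. The channel's beta subunit Cacnb1 differed by -0.25 ± 0.094, also below the median, and its 4 sets all lay below 0.

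Genes of release, buffering and the junction had 5 of 50 sets higher and 2 lower. Speg, a kinase of the junctional membrane that phosphorylates Ryr2 and SERCA2, had all 4 sets above 0, of which 1425968_s_at differed by 0.27 ± 0.069 (SE, n = 3 per group; limma adjusted p = 0.206) and 1451886_at by 0.25 ± 0.069, both without overlap. Tmem38b, a cation channel of the reticulum, lay below 0 in all 4 of its sets, with -0.25 ± 0.071 (SE, n = 3 per group; limma adjusted p = 0.232) for 1424700_at. Among paralogs and regulators of SERCA, 3 of 11 sets were higher and 1 lower. Both sets of Tmx1, a membrane thioredoxin, were higher without overlap (0.26 ± 0.065 and 0.27 ± 0.079). Hspb6, a small heat shock protein that restrains the phosphatase acting on phospholamban, differed by -0.18 ± 0.071, with every GRK2+/- heart below every wild-type heart.

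For extrusion, the plasma membrane calcium pump Atp2b1 read 9.52, 9.61 and 9.50 in the GRK2+/- group and 9.33, 9.19 and 8.91 in the wild-type group by 1428936_at, a difference of 0.40 ± 0.10 (SE, n = 3 per group; limma adjusted p = 0.209). The dimmer set 1428937_at differed by 0.27 ± 0.084, neither overlapping, and the last by -0.014. No other set of the 17 in that role passed. Kinases, phosphatases and calmodulin had 3 of 45 sets higher and 5 lower. Rcan1, an inhibitor of calcineurin that is itself induced by calcineurin signalling, differed by -0.29 ± 0.075 (SE, n = 3 per group; limma adjusted p = 0.204) without overlap, while its brighter set differed by -0.034 ± 0.090. A probe set of the catalytic subunit Ppp2ca differed by 0.37 ± 0.12 and a probe set of the regulatory subunit of protein kinase A Prkar1a by -0.26 ± 0.086. The mitochondrial uniporter Mcu (-0.22 ± 0.078) and the store-operated channel Orai2 (-0.17 ± 0.068) gave the 2 of 21 lower sets of their role, in each case below the median probe set and against the direction of the gene's other set, and 0 of 10 sets of the myofilament calcium sensors passed.

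**Figure D5:**
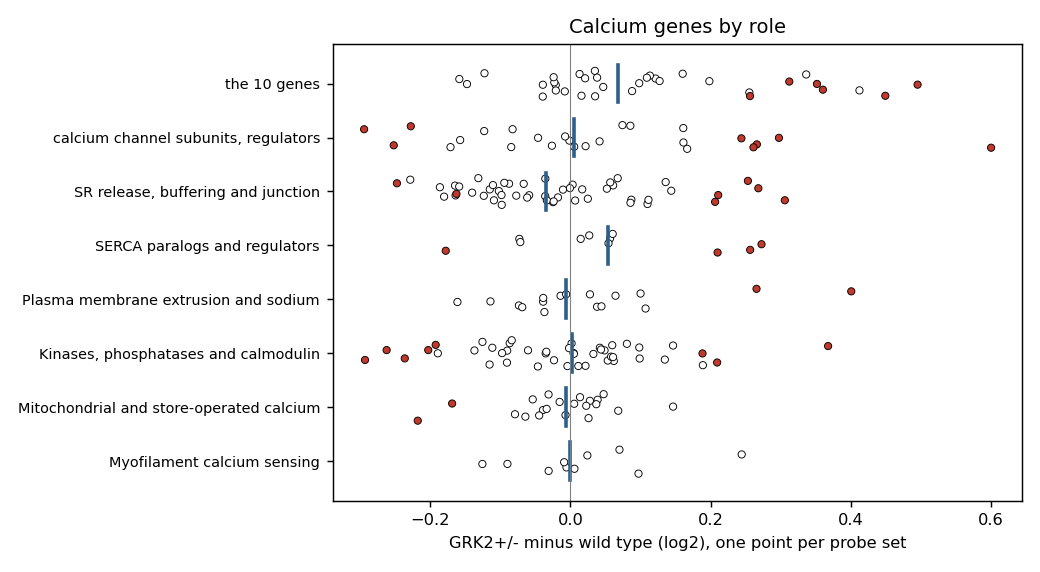
Difference GRK2+/- minus wild type (x axis, log2) of each probe set of the 10 genes and of the 7 roles of the wider list (y axis); red points have an unadjusted limma p under 0.05 and blue bars are medians. The 10 genes have red points on the right only, and 5 of the 7 roles have red points on the left.

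Markers of other cell types and RNA controls were read in the same hearts, beside 5.44% higher and 7.40% lower over all probe sets, and 8.22% higher at or above the median level. Of the smooth muscle and pericyte markers, 4 of 13 probe sets were higher at an unadjusted limma p under 0.05 and 0 lower, and the mean of the brightest sets of the 6 genes ranged over 9.59 to 9.82 and 9.41 to 9.55 in the GRK2+/- and wild-type groups. Endothelial markers had 3 of 7 sets higher (means 9.31 to 9.44 and 9.08 to 9.31, in the same order), fibroblast markers 3 of 13 (10.44 to 10.53 and 10.29 to 10.48) and leukocyte markers 2 of 9 (8.91 to 9.08 and 8.82 to 8.96). Of these 4 pairs of ranges, those of smooth muscle and pericytes did not overlap. Cardiomyocyte markers had 3 of 18 sets higher and 1 lower, and their means (14.43 to 14.49 and 14.45 to 14.48) lay near the ceiling of the scale. Atrial markers had 0 of 8 sets higher and 3 lower, with Nppa at -1.20 ± 0.27, and ventricular markers 0 of 7 higher and 1 lower. Adipocyte, skeletal muscle, neuron and Schwann, and erythroid markers had 0 of 22 sets at that threshold. For beta-actin, the control sets at the 3′ and 5′ ends of the transcript were 0.98 ± 0.080 apart in GRK2+/- hearts (log2, SD, n = 3). In wild-type hearts the distance was 0.78 ± 0.036 (SD, n = 3), and the groups did not overlap (0.90 to 1.06 against 0.73 to 0.80). Such a distance is read for RNA integrity, a wider one standing for less intact RNA. For Gapdh the distance differed by 0.025, for pyruvate carboxylase by 0.021 and for the transferrin receptor by -0.10. The part of cell composition and of RNA integrity in the differences of the calcium cycling genes was not tested.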

How the data were processed

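Expression was measured on Affymetrix arrays in 3 GRK2+/- and 3 wild-type hearts. The authors deposited 1 table of log2 values for 45101 probe sets made with RMA, and also named limma, per the submitters' processing notes. Neither a version, a genome build nor a joint normalisation of the arrays is given in the sources used here. The 64 control sets were left out of tests. A platform annotation gave 34945 probe sets 1 gene symbol, updated through RefSeq (GRCm38.p6); 932 had several and 9160 none.

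Differences came from limma 3.58.1 in R 4.3.3 (lmFit, eBayes, two-sided, Benjamini-Hochberg over all probe sets, threshold 0.05), with no filter, and within-heart differences of probe sets of 1 gene from the same fit over all pairs. SE is limma's. The 6 arrays limit the precision; the labels do not state more than that these are separate hearts. A p under 0.05 without adjustment is used to count, not to call. The members and lists were chosen with earlier results of these data known. Each probe set of the 10 genes was accounted for, and values in every heart are given for the brightest set of a gene and for each whose groups did not overlap. Of the wider list, up to 3 sets per role with the smallest p and no overlap are named. Values in every heart are given for Rrad and for the brighter higher set of Atp2b1, and a difference with its SE for the others. The fit was tested on simulated data. Alternatives were centring, quantile normalisation, a prior with a trend, array weights, no dim sets, the number as a block, and each heart left out.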

Additional observations from a re-analysis of the deposited data

How the results depend on the processing

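The count of probe sets past the adjusted threshold was 0 as deposited, 22 with a variance prior that follows level, and between 0 and 41 with 1 heart left out. Same-gene pairs past it numbered between 0 and 2 with 1 heart left out. No probe set and no pair of the 10 genes passed it in any setting run. Probe sets of the 10 genes higher at an unadjusted p under 0.05 numbered 6 as deposited and between 4 and 10 with 1 heart left out. They numbered 8 after centring and 9 with a variance prior that follows level, and 0 were lower in any setting. For the wider list the higher sets numbered between 10 and 18 and the lower between 6 and 15 with 1 heart left out, and the lower sets 8 after centring and 7 without dim sets. Deviations of same-numbered hearts from their group means correlated at -0.14, -0.020 and 0.0095, and those of differently numbered hearts between -0.099 and 0.12. Same-numbered hearts were thus not more alike by this measure. It cannot decide whether the numbers pair the hearts, because the hearts are few and deviations within a group are tied through its mean. With the replicate block, higher sets of the 10 genes numbered 7 and those of the wider list 16, and no adjusted call arose. Of 436 alternative values of the 34 probe sets, 391 kept direction and side of the unadjusted threshold, 4 fell short of it, 14 crossed it and 27 changed sign, all 27 in sets whose main p was above 0.05; the cause was not tested. After centring the signs changed in Slc8a1 1420210_at (0.021), Casq2 (0.0059), Pln 1423359_at (0.0080) and 1450952_at (0.0079) and Trdn 1426134_at (0.0049), and after quantile normalisation in Atp2a2 1416551_at (-0.029) and 1452363_a_at (-0.013), Slc8a1 1420210_at (0.030) and Pln 1460332_at (-0.0054). With the span trend taken out Pln 1423359_at and 1450952_at were 0.0088 and 0.0086. With 1 heart left out the ranges were -0.059 to 0.040 (Slc8a1 1420210_at), -0.045 to 0.070 (Slc8a1 1440201_at), -0.061 to 0.020 (Casq2), -0.0055 to 0.12 (Camk2d 1422659_at), -0.074 to 0.0046 (Camk2d 1427763_a_at), -0.018 to 0.13 (Camk2d 1444031_at), -0.16 to 0.26 (Camk2d 1459457_at) and -0.082 to 0.037 (Trdn 1426134_at). The mean of the 7 Camk2d sets was 0.021, against -0.039 for the brightest. The shift of Atp2a2 against Pln was between 0.013 and 0.051 with 1 heart left out and 0.0095 after quantile normalisation. Differences at such levels were small throughout the table for a reason that was not tested, so its sign is not read. Centring moved all unadjusted calls from 2448 higher and 3332 lower to 3384 and 2179. Dim sets lie near background and the brightest near the highest value of the table. How far this limits what either can show was not tested.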
